A study of Rattus norvegicus with 10 samples.

Results

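The genes described here encode the microtubule system: tubulins and the factors that fold them, microtubule-binding proteins, kinesin and dynein motors, and proteins of the centrosome and cilium. They were picked by gene symbol alone (names starting with Tub, Tbc followed by a single letter, Map1a, Map1b, Map1s, Mapt, Mapre, Stmn, Katn, Kif, Klc, Dync, Dynl, Dctn, Cep, Haus, Ift, Bbs, Cfap, Ttc and similar stems), which gave 65 genes of the 3334 in the table, or 1.95%. All 65 were annotated as protein coding, and they lay on 20 chromosomes. The RNA came from the lens capsules, that is the capsule with its attached epithelium, of male Sprague-Dawley (SD) rats aged 6 weeks. Both capsules of a rat made 1 sample. In the Normal Group (n = 5 rats) the capsules were collected directly after euthanasia, and in the Hypothermia Group (n = 5 rats) the isolated lenses were first kept in Hibernate-A medium at 4 °C for 8 h. The incubated lenses had thus been cooled, had been outside the eye and had been in medium, and these cannot be told apart, since neither a warm incubation nor a cold time course is among the samples analysed here.

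The table was itself a list chosen by outcome. It held only genes for which the authors' own comparison of these same 10 rats gave a difference, so that a test on it repeats a selection already made, and counts of called genes are given beside the same counts over the whole list. The read counts over listed genes were 9026144 to 12415121 for Hypothermia rats and 4792595 to 8177803 for Normal rats. Of these counts, 23 of 26 lens fibre marker genes (crystallins, beaded-filament and fibre membrane genes) took 58.6% to 70.2% in the Hypothermia Group and 22.3% to 52.2% in the Normal Group, with Normal replicate 1 at the upper end of its group. All 23 were called higher, beside 52.3% of the tested list, and their summed normalized counts ran from 5524930 to 11714700 against 849446 to 3950880. The part that fibre RNA plays in the results below was not tested, and in whole tissue fewer cells of a type and less RNA per cell cannot be told apart. Of 12 lens epithelium markers 3 were listed, and their summed normalized counts were 23337 to 28178 in the Hypothermia Group against 29146 to 34953. Gja1 carried most of that sum (15600 ± 2205 against 21063 ± 2637, not called), Pax6 was called lower, and Pitx3 was called higher by 0.34 (SE 0.08, edgeR adjusted p = 0.0198). The labelled tissue therefore carried RNA of both lens cell types.

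Microtubules are hollow polymers of alpha- and beta-tubulin dimers that grow from gamma-tubulin rings at centrosomes and other organizing sites. Kinesins and cytoplasmic dynein walk along them to carry cargo, a separate set of kinesins builds and pulls apart the mitotic spindle, and the same polymer forms the core of the cilium. Microtubules are also known for disassembling in the cold. In the lens, epithelial cells at the edge of the monolayer leave the cell cycle and elongate into fibres along parallel arrays of microtubules.

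Differences are given as the log2FoldChange of the Hypothermia Group against the Normal Group with its standard error (SE), from counts divided by the authors' size factors. A gene was called when its adjusted p in edgeR's quasi-likelihood test was under 0.05, with adjustment as if 17000 genes had been tested. Of the 65 genes 64 could be tested, since Stmn2 had too few counts. Of these 64, 30 were called higher in the Hypothermia Group (46.9%) and 15 lower (23.4%), against 52.3% and 20.5% of the 3222 listed genes tested. In either direction 45 were called (70.3%), beside 72.9% of the tested list. For 37 of the 65 genes (56.9%) all rats of one group lay above all rats of the other, beside 57.7% of the list, 23 with the Hypothermia Group above (41.1% of the list) and 14 with it below (16.6% of the list). A log2FoldChange past 1 was called higher for 8 of the genes, or 12.5%, beside 10.3% of the list, and past 1 lower for 1, or 1.56%, beside 1.89%. A value above 0 was found for 34 of the 64 (53.1%) and below 0 for 30 (46.9%), beside 63.7% and 36.3% of the tested list. The median log2FoldChange was 0.29 (range -1.86 to 1.69), and that of all listed genes tested was 0.36. The counts were thus close to those of the list as a whole, while the families differed in direction among themselves, as the plot of the values gene by gene shows.

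**Figure D1:**
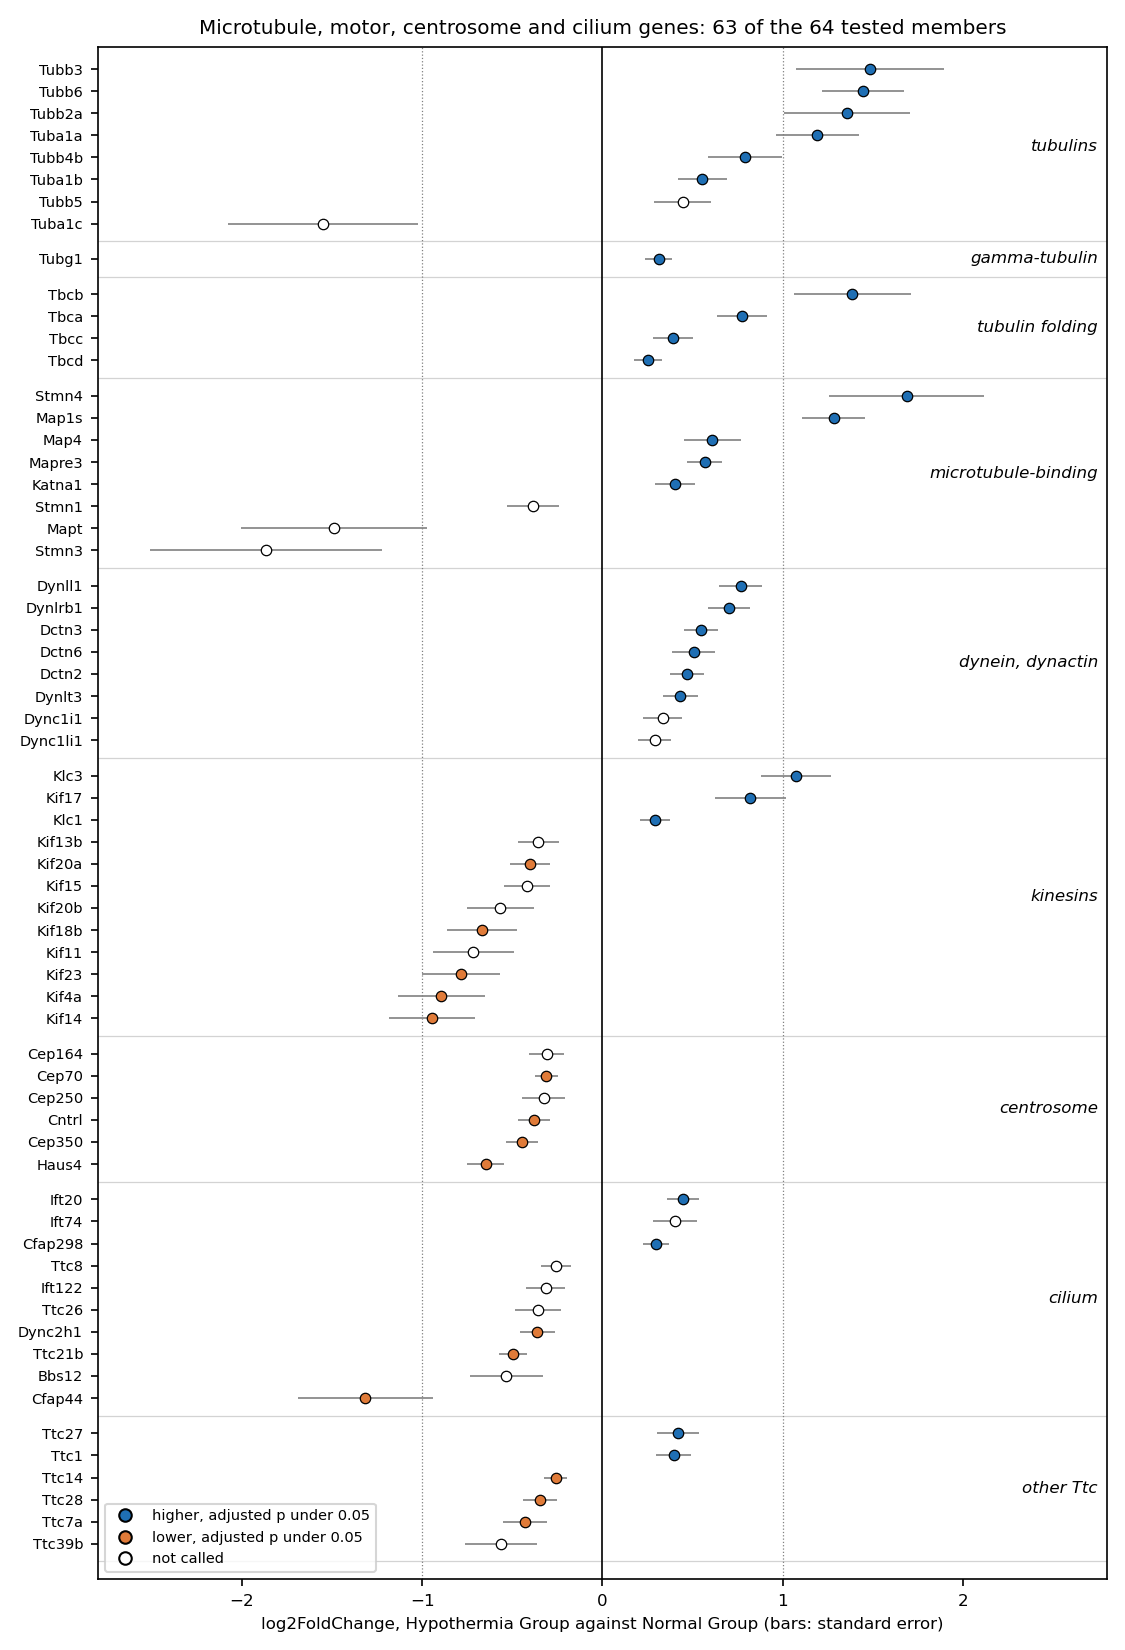
Each point is the log2FoldChange of 1 gene (Hypothermia Group against Normal Group, 5 rats each), with bars of 1 SE, grouped by family. Tubulins other than Tuba1c, the tubulin folding cofactors and the dynein and dynactin subunits lie to the right of 0, and the mitotic kinesins and most centrosome and cilium genes lie to the left.

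The direction of the smaller differences depended on the scaling. With trimmed-mean (TMM) factors computed from the listed genes every difference moved down, by a median of 0.29, and 11 genes were then called higher and 29 lower in place of 30 and 15, so that the share of higher calls went from 66.7% to 27.5%. Scaling to the summed listed counts moved the values down by a median of 1.23 and left 0 called higher and 51 lower. All 5 other scalings moved the genes down together, so by construction they could turn higher values lower and not the reverse. They were computed from the listed genes alone, a list chosen by outcome. With the authors' factors, 63.7% of its tested genes had higher values. Factors from such a list may be off, and these scalings are given as alternatives only.

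The 8 alpha- and beta-tubulin genes, the building blocks of the microtubule, had a median log2FoldChange of 0.99. Of them 6 were called higher, 0 lower and 2 were not called, beside 52.3% and 20.5% of the tested list. Higher calls were 3 with TMM and with median-of-ratios factors (the latter with 1 lower) and 2 with upper-quartile factors, and summed listed counts gave 0 higher and 3 lower. The median stayed above 0 with TMM factors (0.71) and was -0.19 when scaled to the summed listed counts. Abundance per length is given in FPKM, the authors' values. For a given gene these are proportional to its normalized counts across the rats. They therefore carry the same scaling between libraries, and a difference in FPKM repeats the one in normalized counts. Values by rat are given below in the order of replicates 1 to 5, and a replicate number does not link a rat to the same-numbered rat of the other group.

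Tuba1a, an alpha-tubulin abundant in growing neurons, is on chromosome 7 (Rnor_6.0) from 140637287 to 140640953 on the minus strand. Its normalized counts were 10992, 7182, 13482, 10462 and 10712 in the Hypothermia Group and 7010, 5293, 2987, 3740 and 4089 in the Normal Group. Every Hypothermia rat was above every Normal rat, although Normal replicate 1 came close to Hypothermia replicate 2. The FPKM were 393 ± 83.4 and 172 ± 58.4 (SD, n = 5), and the log2FoldChange was 1.19 (SE 0.23, edgeR adjusted p = 0.00809). Beside it on the same chromosome and strand, from 140614752 to 140617721, lies Tuba1b, the broadly expressed alpha-tubulin. Its normalized counts were 7115, 5906, 9147, 8185 and 8006 against 6390, 5653, 4557, 4663 and 4834, so the groups overlapped, and it was called higher by 0.56 (SE 0.14, edgeR adjusted p = 0.0212). In 4 of 10 fits that each left out 1 rat the call did not hold.

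Tuba1c, on the plus strand of the same chromosome from 140716113 to 140723714, was the one tubulin with a lower value. Its normalized counts were 57.9, 51.2, 46.4, 80.6 and 49.7 in the Hypothermia Group and 37.0, 391, 79.6, 130 and 204 in the Normal Group. The Hypothermia rats were close together and the Normal rats were spread over a wide range that included them. The log2FoldChange of -1.55 (SE 0.53) was not called (edgeR adjusted p = 0.0814).

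Tubb6, a beta-tubulin of low abundance in most tissues, had the lowest adjusted p of the tubulins. It lies on chromosome 18, from 63130542 to 63140181 on the plus strand. The Hypothermia rats had normalized counts of 5285, 3939, 6726, 4927 and 6011, and the Normal rats 2970, 2130, 1186, 1592 and 1982. The groups did not overlap, and the log2FoldChange was 1.45 (SE 0.23, edgeR adjusted p = 0.00506), with FPKM of 185 ± 36.4 and 67.7 ± 22.9 (SD, n = 5). Tubb6 and Tuba1a were the only tubulins of the 8 whose call was kept in all 10 fits that left out a rat.

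Tubb2a and Tubb3 are beta-tubulins best known from neurons. Tubb2a (chromosome 17, 31493107 to 31498651, plus strand) had normalized counts of 1274, 765, 1998, 1250 and 1389 against 890, 582, 209, 496 and 430. Hypothermia replicate 2 lay below Normal replicate 1, and the remaining 4 Hypothermia rats lay above all Normal rats. It was called higher by 1.36 (SE 0.35, edgeR adjusted p = 0.0294), a call lost in 7 of the 10 leave-one-out fits. Tubb3 (chromosome 19, 56220755 to 56229813, plus strand) was scarce, with normalized counts of 25.3, 23.0, 61.5, 39.8 and 13.4 against 15.7, 14.7, 7.16, 10.4 and 10.1. Only Hypothermia replicate 5 fell within the range of the Normal rats. The log2FoldChange was 1.49 (SE 0.41, edgeR adjusted p = 0.0330), and 5 of the 10 fits lost the call.

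The abundant, widely expressed beta-tubulins differed less. Tubb4b had normalized counts of 2707, 1905, 3606, 2618 and 2469 against 2192, 1730, 1166, 1167 and 1426, with 1 Hypothermia rat inside the Normal range, and was called higher by 0.79 (SE 0.20, edgeR adjusted p = 0.0259). Tubb5, with the highest mean FPKM of all 65 genes at 293, had normalized counts of 12471, 9613, 15725, 12185 and 10623 against 10577, 10637, 7656, 7645 and 7947. The groups overlapped, and its log2FoldChange of 0.45 (SE 0.16) was not called (edgeR adjusted p = 0.0888). Tubg1, the gamma-tubulin from which microtubules are nucleated, was apart between the groups at a small difference. The normalized counts by rat were 649, 654, 712, 694 and 743 against 590, 615, 519, 533 and 524, giving a log2FoldChange of 0.31 (SE 0.07, edgeR adjusted p = 0.0172), which was 0.03 with TMM factors and -0.0074 with upper-quartile factors.

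**Figure D2:**
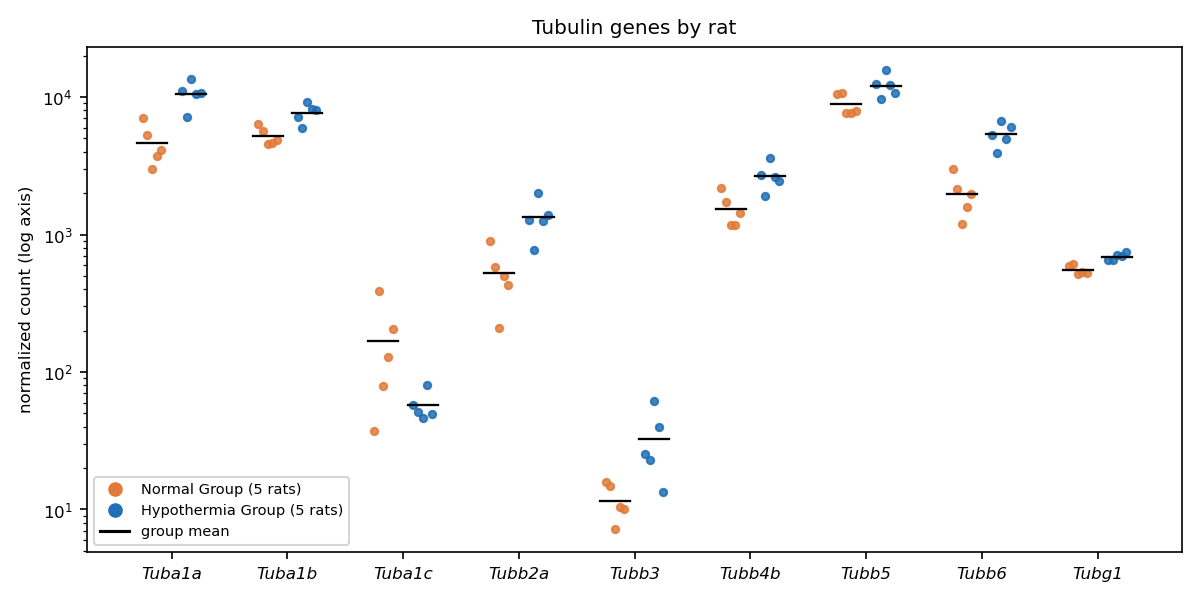
Normalized counts (log axis) of the 8 alpha- and beta-tubulin genes and of Tubg1 in each rat, with the group mean as a bar. The groups do not overlap for Tuba1a, Tubb6 and Tubg1, and the Normal rats spread widely for Tuba1c.

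Because unequal changes shift the mix of isotypes, each tubulin was also expressed as a share of the summed FPKM of the listed members of its family, a measure that no scaling between libraries can move. These shares describe the values above a second time and were not tested. Among alpha-tubulins, Tuba1a made up 57.4% ± 2.44 (SD, n = 5) in the Hypothermia Group, from 54.5% to 60.4%, and 45.2% ± 4.72 in the Normal Group, from 39.02% to 52.0%. Tuba1b made up 42.3% ± 2.38 and 53.1% ± 4.69, so the leading alpha-tubulin differed between the group means. Among beta-tubulins, Tubb5 made up 52.1% ± 2.78 and 65.2% ± 4.27, and Tubb6 28.4% ± 2.61 and 17.3% ± 2.73. In the shares of Tuba1a, Tuba1b, Tubb5 and Tubb6 the rats of one group did not overlap those of the other. The share of Tubb4b was 14.9% ± 0.542 and 14.5% ± 1.06, within the spread between rats. The summed FPKM of the listed alpha-tubulins was 682 ± 127 and 373 ± 87.6, and that of the beta-tubulins 650 ± 128 and 384 ± 84.2. Tubulin paralogs are near-identical in their coding parts, and how many reads their genes share was not tested.

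**Figure D3:**
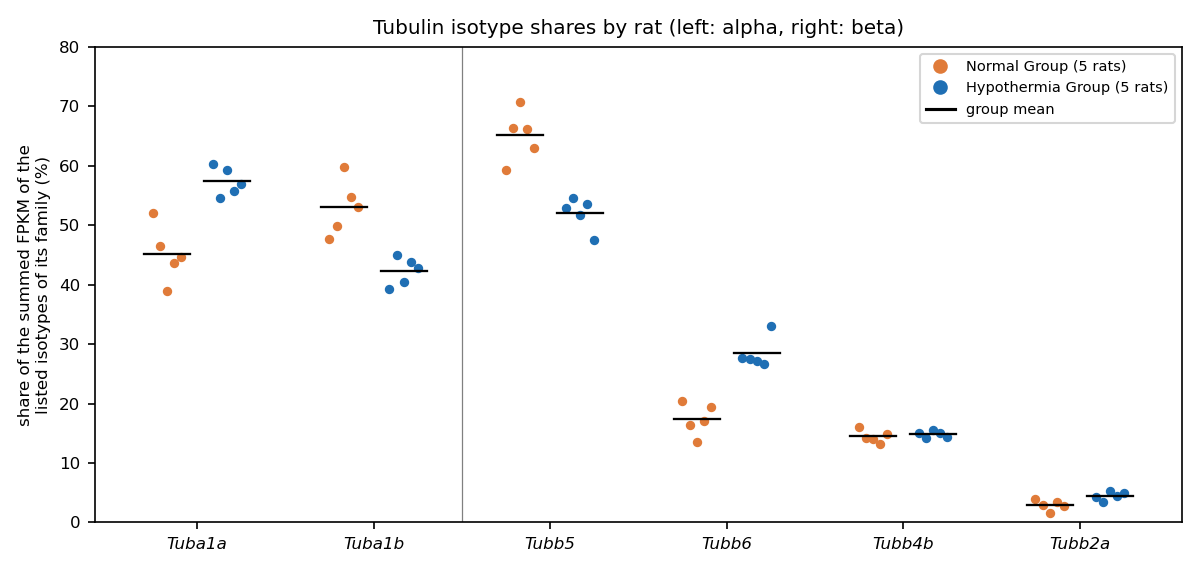
Share (%) of each of 6 tubulins in the summed FPKM of the listed alpha- or beta-tubulins, by rat, with the group mean as a bar. Tuba1a and Tubb6 take larger shares in every Hypothermia rat than in any Normal rat, and Tuba1b and Tubb5 smaller ones.

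New tubulin is folded by the TRiC/CCT chaperonin and then joined into dimers by the tubulin cofactors. All 4 listed cofactors were called higher (Tbca, Tbcb, Tbcc and Tbcd), beside 52.3% of the tested list, with a median log2FoldChange of 0.58. With TMM, median-of-ratios or upper-quartile factors 2 of the cofactors were called higher. Tbca, which holds newly folded beta-tubulin, had normalized counts of 1606, 1419, 2187, 1825 and 2115 in the Hypothermia Group against 1244, 1257, 964, 901 and 976. The groups did not overlap, and the log2FoldChange was 0.78 (SE 0.14, edgeR adjusted p = 0.00634). Tbcb, which holds alpha-tubulin, was scarce at 41.0, 26.1, 52.7, 29.6 and 45.7 against 24.97, 11.5, 12.7, 9.60 and 15.6, also without overlap, and was called higher by 1.39 (SE 0.32, edgeR adjusted p = 0.0159). The calls of Tbca and Tbcb were kept in all 10 leave-one-out fits. For Tbcc, at 0.39 (SE 0.11, edgeR adjusted p = 0.0363), and Tbcd, at 0.26 (SE 0.08, edgeR adjusted p = 0.0484), the call was lost in 8 and 9 of them, and with TMM factors the value of Tbcd was -0.028.

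Of the other genes that fold or modify tubulin, from a list of 23 that share no gene with the 65, 14 were in the table. Of these 11 were called higher and 0 lower, beside 52.3% and 20.5% of the tested list. The list included all 8 subunits of the chaperonin, which had values from 0.34 to 0.67, and 7 of them were called higher. Cct5 had the largest value of the 8, at 4346 ± 551 normalized counts against 2736 ± 478 (SD, n = 5; log2FoldChange 0.67, SE 0.13, edgeR adjusted p = 0.00858). These values lay below the median of the tubulins themselves, which was 0.99.

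Of the 9 genes for microtubule-binding, plus-end, stathmin and severing proteins, 5 were called higher and 0 lower, beside 52.3% and 20.5% of the tested list. Another 3 were not called and Stmn2 was not tested. With TMM factors 2 were called higher and 3 lower. Map1s, a small relative of the axonal protein MAP1B that links microtubules with autophagy and mitochondria, lies on chromosome 16 from 20267581 to 20278814 on the minus strand. It had normalized counts of 2246, 2296, 2662, 2518 and 3145 against 1480, 1041, 773, 811 and 1181. Every Hypothermia rat was well above the highest Normal rat, and the log2FoldChange was 1.28 (SE 0.17, edgeR adjusted p = 0.00459). Map4, the main microtubule stabilizer outside neurons, had 5460, 4831, 7996, 5233 and 7190 against 4581, 4395, 3093, 3947 and 4109, again without overlap, and was called higher by 0.61 (SE 0.16, edgeR adjusted p = 0.0252), a call lost in 5 of the 10 leave-one-out fits.

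Mapre3, the plus-end protein EB3, had the highest mean FPKM of this family, at 48.3 ± 6.63 against 32.6 ± 2.14 (SD, n = 5). By rat, the normalized counts were 1319, 1299, 1703, 1308 and 1638 against 1050, 1015, 928, 898 and 1011, the groups did not overlap, and it was called higher by 0.57 (SE 0.10, edgeR adjusted p = 0.00579). Katna1, the catalytic subunit of the microtubule-severing enzyme katanin, was called higher by 0.40 (SE 0.11, edgeR adjusted p = 0.0329) and lost the call in 6 of the 10 fits. The upward calls in this family thus covered a stabilizer, a plus-end protein and a severing enzyme alike. From the list of 47 other microtubule-associated genes 17 were in the table, 4 called higher and 5 lower, beside 52.3% and 20.5% of the tested list. The one past 1 was Map6d1, a relative of the stable tubule-only protein, at 108.7 ± 16.8 normalized counts against 42.0 ± 11.8 (log2FoldChange 1.37, SE 0.22, edgeR adjusted p = 0.00506).

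Stathmins bind tubulin dimers and destabilize microtubules. All 4 listed genes of this family overlapped between the groups, while 57.7% of the list did not. Stmn4, a stathmin of neurons, had normalized counts of 158, 81.5, 299, 105 and 53.7 against 58.3, 35.2, 26.3, 40.8 and 55.8. Of the Hypothermia rats 4 lay above every Normal rat and replicate 5 lay within their range. It had the largest value among the 65 genes, 1.69 (SE 0.43, edgeR adjusted p = 0.0251), a call that 4 of the 10 leave-one-out fits lost. Stmn1, the stathmin of dividing cells, had 760, 766, 896, 1145 and 825 against 1254, 1356, 1255, 978 and 897, and its value of -0.39 (SE 0.14) was not called (edgeR adjusted p = 0.109).

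The remaining neuronal genes of the family had lower values and very low counts. Stmn3 had normalized counts of 2.41, 0, 3.77, 2.04 and 13.4 in the Hypothermia Group against 16.6, 7.36, 16.7, 15.2 and 20.1, and its log2FoldChange, the lowest among the 65 genes at -1.86 (SE 0.64), was not called (edgeR adjusted p = 0.0807). Mapt, the axonal protein tau, had 7.23, 5.23, 3.77, 7.14 and 18.8 against 8.32, 15.5, 36.6, 19.99 and 36.6 and was not called either (-1.49, SE 0.51, edgeR adjusted p = 0.0810). For both genes only Hypothermia replicate 5 was inside the Normal range.

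Stmn2 was at 0 in 4 Hypothermia rats and at 1.26 in Hypothermia replicate 3, and the Normal rats had 0.925, 4.09, 12.7, 5.60 and 11.9 normalized counts. An exact permutation test over the 10 rats on log2(normalized count + 1), two-sided, gave p = 0.0159, where 5 rats against 5 can give no less than 0.00794. That p is unadjusted, and the gene came from a list selected on these same rats, so it gives no independent support. Genes known from neurons therefore went both ways, with Tubb3 and Stmn4 called higher and Stmn2, Stmn3 and Mapt at lower values. From a separate list of 11 neuron markers 2 were in the table. Uchl1 was called higher (1.13, SE 0.23, edgeR adjusted p = 0.0101), and Nefl was not tested, at 0 in every Hypothermia rat and 14.2 ± 12.6 normalized counts in the Normal rats. Whether nerve or ciliary tissue at the capsule's edge took part in these values was not tested. Of 14 markers of ciliary and pigmented epithelium 6 were listed, with sums of 213 to 455 normalized counts in the Hypothermia Group and 414 to 1705 in the Normal Group.

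Cytoplasmic dynein carries cargo towards the centrosome and needs dynactin to do so. Of the 8 listed genes 6 were called higher and 0 lower, beside 52.3% and 20.5% of the tested list, with a median log2FoldChange of 0.49. The 8 genes had a median length of 1445.5 bases in the authors' table, a measure that is not the span on the chromosome. Of all listed genes of 1281 to 2191 bases 78.4% had a higher value. All 8 genes had higher values, beside 63.7% of the tested list. This direction held for all 8 with TMM factors, for 7 with median-of-ratios and upper-quartile factors, for 5 when scaled to the listed counts without lens fibre genes and for 0 when scaled to all listed counts. Called higher were 3 with TMM or median-of-ratios factors and 2 with upper-quartile factors, and summed listed counts gave 0 higher and 7 lower. The 6 calls were each kept in all 10 leave-one-out fits.

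Dynll1, the LC8 light chain that also serves as a dimerizing hub for many other proteins, lies on chromosome 12 from 47074200 to 47076572 on the plus strand. The normalized counts of the gene were 2530, 2266, 3113, 2464 and 3052 against 1925, 1640, 1442, 1417 and 1457. No rats overlapped, and the log2FoldChange was 0.77 (SE 0.12, edgeR adjusted p = 0.00474), with FPKM of 247.4 ± 34.7 and 145 ± 19.7 (SD, n = 5). The roadblock light chain Dynlrb1 had 1642, 1563, 2056, 1914 and 2179 against 1357, 1276, 1006, 1060 and 1047, also apart, and was called higher by 0.70 (SE 0.12, edgeR adjusted p = 0.00562). The Tctex-type light chain Dynlt3 was called higher by 0.43 (SE 0.10, edgeR adjusted p = 0.0146) although 1 Hypothermia rat lay inside the Normal range.

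The intermediate chain Dync1i1, which ties dynein to dynactin, had 4969, 5011, 5638, 5485 and 4510 against 4977, 3988, 3867, 3945 and 3520. Normal replicate 1 lay among the Hypothermia rats, and the value of 0.34 (SE 0.11) was not called (edgeR adjusted p = 0.0605). The light intermediate chain Dync1li1, which binds cargo adaptors, had 540, 535, 643, 499 and 481 against 476, 479, 419, 405 and 424. The lowest Hypothermia rat was just above the highest Normal rats, and its 0.29 (SE 0.09) was not called (edgeR adjusted p = 0.0548).

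All 3 listed dynactin subunits were apart between the groups with the Hypothermia Group above, beside 41.1% of the list. Dctn3, the p24 subunit, had 633, 592, 699, 643 and 676 against 511, 484, 446, 372 and 406 (log2FoldChange 0.55, SE 0.09, edgeR adjusted p = 0.00575). Dctn6, of the pointed end of the dynactin filament, had 619, 597, 847, 711 and 713 against 590, 532, 446, 472 and 416 (0.51, SE 0.12, edgeR adjusted p = 0.0162). Dctn2, dynamitin, had 2468, 2118, 2688, 2341 and 2686 against 2069, 1834, 1586, 1682 and 1709 (0.47, SE 0.10, edgeR adjusted p = 0.00965). In each of them Normal replicate 1 was the nearest to the Hypothermia rats. From the list of 29 other dynein, dynactin and motor adaptor genes 9 were in the table. Of these 4 were called higher and 1 lower, beside 52.3% and 20.5% of the tested list. Actr1a, the actin-related protein that forms the dynactin filament, was called higher by 0.72 (SE 0.14, edgeR adjusted p = 0.00756), and Mapk8ip1, a scaffold that binds kinesin light chains, was past 1 at 3690 ± 816 normalized counts against 1369 ± 539 (1.43, SE 0.25, edgeR adjusted p = 0.00627).

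**Figure D4:**
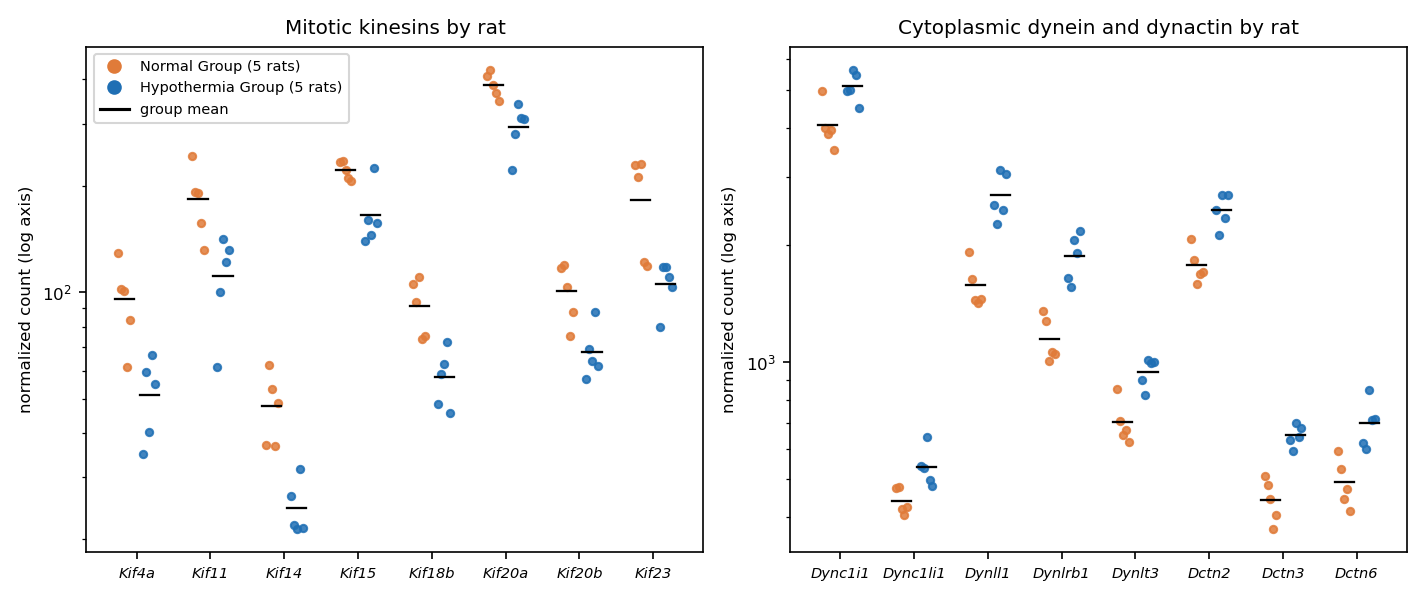
Normalized counts (log axes) of 8 mitotic kinesins, left, and of 8 cytoplasmic dynein and dynactin genes, right, by rat, with the group mean as a bar. The Hypothermia means lie below the Normal means for all 8 kinesins and above them for all 8 dynein and dynactin genes.

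The 12 genes for kinesins and kinesin light chains split only in part by role, since the transport motors Kif17 and Kif13b went opposite ways. Those of transport and its light chains had 3 of 4 called higher and 0 lower, and those of the spindle and of cell division had 0 of 8 called higher, 5 called lower and 3 not called, with 8 lower values. Of the tested list 52.3% were called higher and 20.5% lower. This grouping by known role was made after the values had been seen. It also went with gene length, at a median of 4723.5 bases for the 8 and 3424 for the 4. The 3 called higher have 1741 to 3691 bases, and Kif13b, with a lower value, has 5834. What part length has in the split was not tested. Klc3, a kinesin light chain, lies on chromosome 1 from 80306102 to 80315533 on the minus strand and had normalized counts of 166, 137, 127, 150 and 240 against 88.8, 64.6, 94.7, 68.0 and 73.2. The groups did not overlap (log2FoldChange 1.07, SE 0.19, edgeR adjusted p = 0.00636). Kif17, the motor of dendrites and of cilia, had 83.2, 75.3, 89.1, 99.0 and 71.2 against 34.2, 54.8, 59.7, 42.4 and 44.9, also apart (0.82, SE 0.20, edgeR adjusted p = 0.0173). The calls of Klc3 and Kif17 were kept in all 10 leave-one-out fits.

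Klc1, the main kinesin light chain and the kinesin gene with the highest mean FPKM, had 2806, 2487, 3077, 2749 and 3223 against 2430, 2345, 2416, 2185 and 2322. The groups were apart by a narrow gap, and it was called higher by 0.29 (SE 0.08, edgeR adjusted p = 0.0389), a call lost in 8 of the 10 leave-one-out fits. With median-of-ratios factors its value was -0.022. Kif13b, a transport motor, had a lower value of -0.35 (SE 0.11) and was not called (edgeR adjusted p = 0.0620).

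The 8 mitotic kinesins had values from -0.94 to -0.40 with a median of -0.69. Kif14, which acts in cytokinesis, lies on chromosome 13 from 53351717 to 53420111 on the plus strand. It had normalized counts of 26.5, 22.0, 21.3, 31.6 and 21.5 against 37.0, 62.2, 53.3, 36.8 and 48.5. The groups did not overlap (log2FoldChange -0.94, SE 0.24, edgeR adjusted p = 0.0223). Kif4a, a chromosome-arm motor, had 35.0, 59.6, 40.2, 66.3 and 55.1 against 129, 102, 101, 61.6 and 83.3. Only Normal replicate 4 and Hypothermia replicate 4 crossed (-0.89, SE 0.24, edgeR adjusted p = 0.0310).

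Kif23, the motor of the central spindle, had 79.6, 118, 118, 110 and 103 against 229, 212, 231, 122 and 119. Normal replicates 4 and 5 lay just above the Hypothermia rats and the remaining Normal rats far above them (-0.78, SE 0.22, edgeR adjusted p = 0.0342). Kif18b, a depolymerizer of astral microtubules, had 48.2, 58.5, 62.8, 72.5 and 45.7 against 105, 94.1, 111, 73.6 and 75.1 and was called lower (-0.67, SE 0.19, edgeR adjusted p = 0.0407). Kif20a, of cytokinesis, had the smallest difference of the 8, with 222, 281, 341, 310 and 309 against 409, 425, 386, 365 and 347 (-0.40, SE 0.11, edgeR adjusted p = 0.0342). For Kif18b and Kif20a the lowest Normal rat was just above the highest Hypothermia rat.

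Kif11, Kif15 and Kif20b were not called. Kif11, which pushes the spindle poles apart, had 61.5, 100, 142, 121 and 132 against 243, 192, 191, 157 and 132 (-0.72, SE 0.22, edgeR adjusted p = 0.0544). The 5 calls among the mitotic kinesins were sensitive to single rats. Leaving out Hypothermia replicate 5, Normal replicate 2 or Normal replicate 3 left 0 of the 8 called lower, and leaving out Hypothermia replicate 4 left 5, while the median of the 8 values stayed between -0.77 and -0.59 in all 10 fits. With all 10 rats, DESeq2, adjustment over the tested genes and each of the 5 other scalings called all 8 lower. A threshold of 0.01 on the adjusted p called 0, as did the fit with the replicate number as a block. Adjustment over the tested genes called 2052 listed genes higher and 1169 lower, of 3222 tested, so it could hardly leave the 8 uncalled. The 5 scalings moved all genes down together and so favoured lower calls by construction. The counts under that adjustment and those scalings are thus no separate support.

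These kinesins moved beside a list of 15 other proliferation genes. Of that list 10 were in the table, with a median log2FoldChange of -0.71. All 10 had lower values and 8 were called lower, beside 36.3% and 20.5% of the tested list. Their summed normalized counts were 1543 to 2346 in the Hypothermia Group and 2301 to 3834 in the Normal Group. Cenpe, itself a kinesin of the kinetochore that the name rule missed, was called lower by -0.87 (SE 0.21, edgeR adjusted p = 0.0179), and the proliferation marker Mki67 by -0.57 (SE 0.15, edgeR adjusted p = 0.0274). What part a smaller share of dividing cells has in the kinesin values was not tested.

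Many genes that peak in mitosis carry in their promoters the CHR element, known by the letters TTTGAA, often beside CCAAT boxes. The 200 bases before the start of each gene in RefSeq (build GRCr8) were searched for both on either strand, and 51 of the 65 genes had an entry. TTTGAA was present for 3 of the 7 mitotic kinesins with an entry and for 6 of the 51 genes, against 12.6% of 33469 promoters. CCAAT was present for 5 of the 7 and for 27 of the 51, against 29.2%. The 3 promoters with TTTGAA are shown because their genes were among the 8 of lower value. Capitals mark TTTGAA or its reverse complement TTCAAA and the CCAAT box, here on the opposite strand as ATTGG, and the sequences run 5′ to 3′ along the gene's own strand.
Kif23 (chr8:71320585-71320784, minus strand): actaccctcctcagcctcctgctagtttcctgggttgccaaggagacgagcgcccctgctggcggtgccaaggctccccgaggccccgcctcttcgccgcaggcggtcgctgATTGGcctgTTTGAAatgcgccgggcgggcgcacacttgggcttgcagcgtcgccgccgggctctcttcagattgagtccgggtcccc
Kif20b (chr1:241840816-241841015, plus strand): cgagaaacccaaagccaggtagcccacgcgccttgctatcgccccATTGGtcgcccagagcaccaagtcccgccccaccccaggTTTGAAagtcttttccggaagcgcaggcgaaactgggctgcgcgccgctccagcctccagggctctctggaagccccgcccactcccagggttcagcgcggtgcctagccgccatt
Kif15 (chr8:131479204-131479403, plus strand): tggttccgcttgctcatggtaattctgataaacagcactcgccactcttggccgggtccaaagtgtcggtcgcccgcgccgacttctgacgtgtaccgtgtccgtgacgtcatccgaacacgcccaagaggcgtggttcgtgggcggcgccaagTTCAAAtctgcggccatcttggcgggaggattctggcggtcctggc
In Kif23 the TTTGAA lies 79 to 74 bases before the start with ATTGG 88 to 84 bases before it, in Kif20b the pair lies at 116 to 111 and 155 to 151, and in Kif15 the reversed element lies at 46 to 41 with no CCAAT box in the window. A match of letters is a description and not a bound site. Of these 3 genes Kif23 was called lower, and Kif20b (-0.57, SE 0.19, edgeR adjusted p = 0.0681) and Kif15 (-0.42, SE 0.13, edgeR adjusted p = 0.0534) were not called.

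Of the 7 centrosome and augmin genes 4 were called lower and 1 higher, beside 20.5% and 52.3% of the tested list. Their median log2FoldChange of -0.33 was lower still, down to -1.59, under every other scaling. With TMM factors 6 were called lower. The median length of the 7 was 4895 bases, and of all listed genes of 3767 to 28192 bases 30.4% had a higher value. What part length has in this direction was not tested. Haus4, a subunit of the augmin complex that branches new microtubules off old ones in the spindle, lies on chromosome 15 from 33182128 to 33193537 on the minus strand. By rat, the normalized counts were 129, 124, 128, 139 and 144 in the Hypothermia Group against 179, 220, 233, 209 and 199. The groups were far apart for their spread, and the log2FoldChange was -0.65 (SE 0.10, edgeR adjusted p = 0.00506). Cep350, a large protein that anchors microtubules at the centrosome, had 792, 795, 624, 698 and 709 against 987, 881, 943, 1044 and 1072 (-0.44, SE 0.09, edgeR adjusted p = 0.00858). Cntrl, centriolin of the mother centriole, had 465, 482, 438, 509 and 406 against 539, 600, 679, 617 and 557 (-0.38, SE 0.09, edgeR adjusted p = 0.0147), and Cep70 had 294, 303, 294, 300 and 300 against 386, 366, 351, 374 and 373 (-0.31, SE 0.06, edgeR adjusted p = 0.00937). None of these 4 genes, singled out because they were called lower, had rats that overlapped between the groups. Of the list, 16.6% were apart with the Hypothermia Group below. All 4 kept the call in all 10 leave-one-out fits.

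Cep164, of the distal appendages that start the cilium, and Cep250, a linker of the 2 centrioles, had values of -0.31 and -0.33 and were not called (edgeR adjusted p = 0.0576 and 0.0934). From the list of 44 other centrosome and spindle genes 9 were in the table. Of these 4 were called higher and 3 lower, beside 52.3% and 20.5% of the tested list.

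Of the 10 cilium and axoneme genes 2 were called higher and 3 lower, beside 52.3% and 20.5% of the tested list. The median log2FoldChange of the 10 was -0.34, and 5 were not called. With TMM, median-of-ratios or upper-quartile factors 0 were called higher and 7 lower, and with summed listed counts 0 and 10. Intraflagellar transport (IFT) moves cargo up the cilium on the IFT-B complex and back on IFT-A and the dynein 2 motor. Ift20, the IFT-B subunit that also works at the Golgi, lies on chromosome 10 from 65805860 to 65811351 on the plus strand. Its normalized counts were 739, 736, 849, 854 and 865 against 666, 643, 566, 570 and 515. The groups did not overlap, and the log2FoldChange was 0.45 (SE 0.09, edgeR adjusted p = 0.00858). Ttc21b, of IFT-A, had 246, 239, 216, 238 and 219 against 323, 328, 325, 357 and 299, again without overlap, in the other direction (-0.50, SE 0.08, edgeR adjusted p = 0.00493). Both calls were kept in all 10 leave-one-out fits.

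Dync2h1, the heavy chain of dynein 2, had 1061, 1261, 963, 1154 and 1139 against 1383, 1259, 1355, 1535 and 1629. Hypothermia replicate 2 was level with the lowest Normal rat, and the gene was called lower (-0.36, SE 0.10, edgeR adjusted p = 0.0278), a call lost in 6 of the 10 fits. Ift122 of IFT-A had a value of -0.32 and was not called (edgeR adjusted p = 0.0723). Of the other IFT-B genes Ift74 had 0.40 (edgeR adjusted p = 0.0517) and Ttc26 -0.36 (edgeR adjusted p = 0.0890), neither called. The genes of the BBSome and its assembly, Bbs12 (-0.53, edgeR adjusted p = 0.121) and Ttc8 (-0.26, edgeR adjusted p = 0.0643), were not called.

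Among axonemal genes Cfap44, a component of motile axonemes, was the only one of the 65 genes called lower by more than 1. It had few counts, 7.23, 8.36, 3.77, 11.2 and 2.69 against 17.6, 13.1, 19.9, 16.0 and 19.2, and the groups did not overlap (log2FoldChange -1.31, SE 0.37, edgeR adjusted p = 0.0374). The call was lost in 8 of the 10 leave-one-out fits. Cfap298 was called higher by 0.30 (SE 0.07, edgeR adjusted p = 0.0195), with a value of -0.013 under median-of-ratios factors. From a list of 14 markers of multiciliated cells 2 were in the table, 0 called higher and 1 lower. From the list of 107 other cilium genes 24 were in the table, with a median of -0.35. Lower values were found for 19 of them, beside 36.3% of the tested list. Called were 10 lower and 4 higher, beside 20.5% and 52.3%. Those called included Ahi1 of the transition zone at -0.51 (SE 0.09, edgeR adjusted p = 0.00559) and Arl3, a small GTPase that unloads lipidated cargo in cilia, at 0.84 (SE 0.18, edgeR adjusted p = 0.0130).

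The 6 remaining genes share only the tetratricopeptide repeat behind the symbol Ttc and are not known as a microtubule group. Of them 2 were called higher and 3 lower, beside 52.3% and 20.5% of the tested list, and with TMM factors 0 and 4 of the 6 were. Ttc1 was called higher by 0.40 (SE 0.10, edgeR adjusted p = 0.0206) and Ttc27 by 0.42 (SE 0.12, edgeR adjusted p = 0.0344), and the calls were lost in 4 and 7 of the 10 leave-one-out fits. Ttc14 had a narrow spread, with 634, 632, 629, 631 and 609.9 against 682, 735, 774, 771 and 792, and was called lower (-0.26, SE 0.06, edgeR adjusted p = 0.0196). Ttc28 (-0.35, SE 0.10, edgeR adjusted p = 0.0337) and Ttc7a (-0.43, SE 0.12, edgeR adjusted p = 0.0368) were called lower, each losing the call in 7 of the 10 fits. Ttc39b, with the lowest value of the 6 at -0.56 (SE 0.20), was not called (edgeR adjusted p = 0.0901).

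The direction of a gene went with its length in the authors' table, over the 65 genes and over the whole list. This length is not the span on the chromosome. Tbca has 570 bases by it and lies on chromosome 2 from 24449485 to 24505334. The tested list was divided into 4 classes of about equal size by the gene length in the authors' table, which ended at 1278, 2191, 3761 and 28192 bases. In these classes, from short to long, 92.9%, 78.4%, 53.2% and 30.4% of all listed genes had a higher value in the Hypothermia Group. Of the microtubule, motor, centrosome and cilium genes, 9 of 10 had a higher value in the shortest class, 16 of 19 in the next, 5 of 13 in the third and 4 of 22 in the longest. Across genes, which are not independent replicates, Spearman's rho between length and log2FoldChange was -0.51 over these 64 genes and -0.43 over 3222.

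By the length in the authors' table, Tbca has 570 bases, Dynll1 652 and Ift20 1126, all called higher. Cep350 has 10146 and Dync2h1 12912, both called lower, and the 8 mitotic kinesins have a median of 4723.5. Exceptions were Map1s with 4235 bases and Map4 with 8938, both called higher, and Haus4 with 1549, called lower. The median length was 1699.5 bases for the 30 genes called higher and 4481 for the 15 called lower, against 1590.5 and 3876.5 over the whole list. RNA with an integrity number (RIN) as low as 5.8 was accepted for sequencing. Whether RNA integrity, library preparation or the cells themselves set this relation was not tested.

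**Figure D5:**
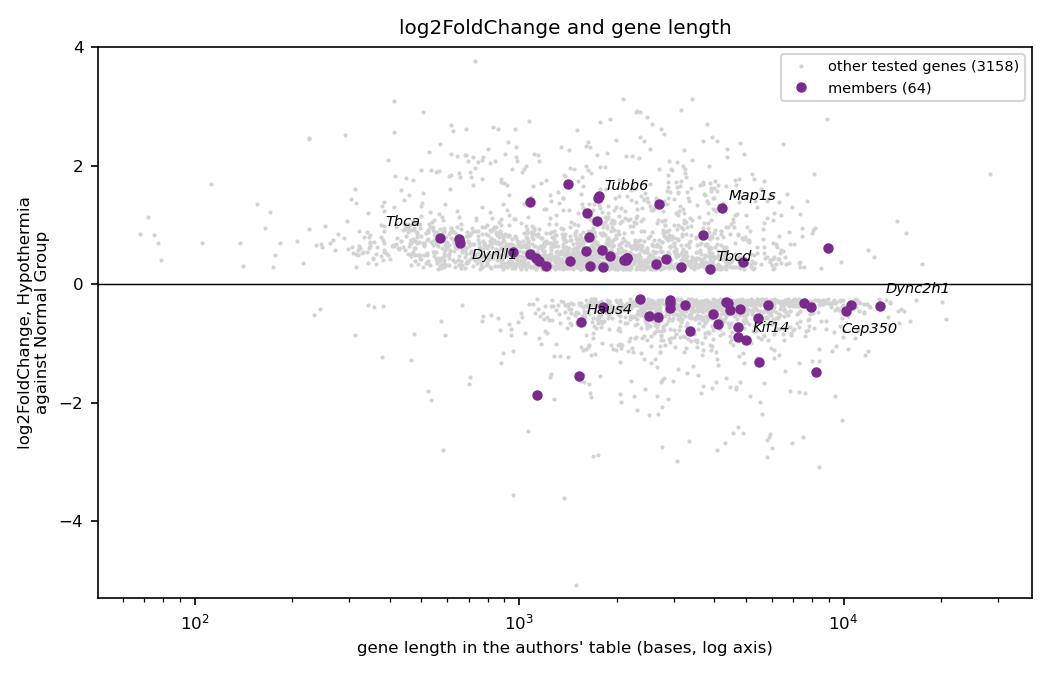
The log2FoldChange of the 64 tested genes (purple) and of the other 3158 tested genes (grey) against gene length in the authors' table (bases, log axis). Short genes lie mostly above 0 and long genes mostly below, and the empty band around 0 comes from the selection of the list by outcome.

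The rats of a group were not equally far from the other group. Of the 34 genes with a higher value in the Hypothermia Group, 24 had their highest Normal value in Normal replicate 1 (70.6%), as did 60.7% of all such listed genes. For 21 of the 34 the lowest Hypothermia value was in Hypothermia replicate 2, as for 1141 of the 2053 such listed genes. The highest Hypothermia value was in Hypothermia replicate 3 for 24 of the 34 and for 974 of the 2053. Normal replicate 1 was also the Normal rat with the largest share of lens fibre counts. Of the 45 calls, 21 were kept in all 10 leave-one-out fits, 24 were lost in at least 1 and 18 in at least 5. Those kept included Tuba1a, Tubb6, Tbca, Tbcb, Map1s, Mapre3, Klc3, Kif17, the 6 dynein and dynactin calls, Cep350, Cep70, Cntrl, Haus4, Ift20 and Ttc21b.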

How the data were processed

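RNA-seq data of 10 rat lens capsule samples, 5 per group, were analysed from 1 table of 3334 genes. Per the labels and the methods of the study, libraries were made with the NEBNext Ultra kit and reads were aligned to Rnor_6.0 with HISAT2 2.0.5. The counts per gene were made by the authors with featureCounts 1.5.0-p3, and the strand setting and annotation release are not given in the sources used here. FPKM values were computed by the authors from the same counts and gene lengths, with the same scaling between libraries as the normalized counts. The authors' normalized signal, given as group means, was used to recover their size factors by least squares (largest relative error 4.89e-10). The authors' log2 fold changes and p-values, made with DESeq2 1.16.1, were deposited in the same table and were not used.

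From the counts, edgeR 4.0.16 in R 4.3.3 (filterByExpr, robust quasi-likelihood fit) gave log2FoldChanges, with Benjamini-Hochberg adjustment as if 17000 genes had been tested, since the table holds only selected genes. The SE is the size of the log2FoldChange divided by the square root of F. Every sample is a separate rat. DESeq2 1.42.0, other scalings, filters and leave-one-out fits were alternatives, and the code was tested on simulated data. Depth limits the genes under about 20 normalized counts, such as Stmn2, Stmn3 and Cfap44.

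The genes and lists were chosen with earlier results of these data known. Named by rule were, in each family, the highest and lowest log2FoldChange, the highest mean FPKM and every call past 1, and, from the related lists, at most 3 calls past 1. The results of 1 gene that the rule names are not reported here. Other genes given with values were chosen after their values were seen. Gene coordinates are those of the table, on Rnor_6.0.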

Additional observations from a re-analysis of the deposited data

Results flagged for a closer look

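In 5 of 130 groups of 5 rats, 1 rat stood apart from the other 4 by Dixon's test, where chance flags about 1 in 20. The normalized count of Mapt was 18.8 in Hypothermia replicate 5, with 7.23 next. Stmn3 was 13.4 in the same rat, with 3.77 next. Ttc14 was also apart in that rat, on the low side, at 609.9 with the next at 628.9. Stmn2 was 1.26 in Hypothermia replicate 3 and 0 in the others. Kif15 was 225 in Hypothermia replicate 4, with 159.9 next.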

How the results depend on the processing

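The deposited list was selected on these rats and gives no independent test. Each count of calls among the 65 genes is given as higher and lower, after 30 and 15. TMM factors gave 11 and 29, median-of-ratios factors 11 and 29, upper-quartile factors 9 and 29, summed listed counts 0 and 51, and summed counts without lens fibre genes 4 and 30. TMM factors with adjustment over the tested genes gave 19 and 30, that adjustment alone 34 and 30, DESeq2 34 and 22, and a threshold of 0.01 11 and 4. Past 1 (8 and 1), the same scalings gave 4 and 7, 3 and 7, 2 and 7, 0 and 29, and 1 and 11, then 6 and 8, 8 and 4, 8 and 3, and 4 and 0, no filter 8 and 2, and a minimum of 10 counts in every sample 7 and 0. Over all listed genes (1686 and 662), they gave 639 and 1100, 611 and 1101, 554 and 1106, 57 and 2398, 314 and 1128, then 1040 and 1167, 2052 and 1169, 1959 and 979, and 667 and 86. The share of higher calls among the 65 genes was 66.7%, and 27.5%, 27.5%, 23.7%, 0% and 11.8% under the 5 scalings. The median shift was -0.29, -0.31, -0.32, -1.23 and -0.45. Leaving out 1 rat gave 16 to 30 higher (16 without Normal replicate 4) and 6 to 16 lower (6 without Normal replicate 3), 5 to 8 and 0 to 3 past 1, and 1077 to 1717 and 300 to 663 over all listed genes, and no sign turned. Rats with the same number are different animals, their deviations correlated at -0.17 to 0.23, and no rat matched its own number best, so the numbers do not pair the rats. With the replicate block 11 and 3 were called, 5 and 0 past 1, and 809 and 134 over all listed genes.

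The 5 scalings all moved values down, and these higher values turned lower. With TMM factors under either adjustment, Tbcd was -0.028. With median-of-ratios factors, Tbcd was -0.051, Klc1 -0.022, Dync1li1 -0.017 and Cfap298 -0.013. With upper-quartile factors, Tbcd was -0.062, Klc1 -0.032, Dync1li1 -0.027, Cfap298 -0.022 and Tubg1 -0.0074. With summed listed counts without lens fibre genes, Tbcd was -0.19, Klc1 -0.16, Dync1li1 -0.15, Cfap298 -0.15, Tubg1 -0.14, Dync1i1 -0.10, Tbcc -0.064, Ttc1 -0.050, Katna1 -0.048, Ift74 -0.045, Ttc27 -0.026, Dynlt3 -0.013 and Tubb5 -0.0013. With summed listed counts, Tbcd was -0.97, Klc1 -0.96, Cfap298 -0.93, Dync1li1 -0.93, Tubg1 -0.92, Dync1i1 -0.87, Tbcc -0.86, Katna1 -0.82, Ttc1 -0.82, Ift74 -0.82, Ttc27 -0.80, Dynlt3 -0.79, Ift20 -0.78, Tubb5 -0.77, Dctn2 -0.76, Dctn6 -0.72, Dctn3 -0.68, Mapre3 -0.68, Tuba1b -0.67, Map4 -0.64, Dynlrb1 -0.53, Dynll1 -0.47, Tbca -0.47, Kif17 -0.44, Tubb4b -0.40 and Klc3 -0.21. Each scaling moves all genes together, by construction.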
